A study of Mus musculus with 22 samples.

Results

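The genes described are Tardbp, Matr3, Ewsr1, Taf15 and Tia1, which encode RNA-binding proteins linked to motor neuron disease. They were taken by symbol, and each had 1 row among the 15705 genes of the 6-month table and 1 row among the 15192 genes of the 12-month table, so all 5 were measured in all 22 libraries. The study concerns, by its title, a splicing defect of the U1 small nuclear ribonucleoprotein (snRNP), the particle that recognises 5′ splice sites, in relation to Alzheimer disease. Poly(A)-selected RNA of mouse cortex was sequenced, and the deposited value is the Sd score, a linear ratio per gene and library. The formula was not given in the sources used here, and the score is read here as splicing deficiency, so that larger scores mean relatively more RNA left unspliced.

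At 6 months there were 12 libraries, 3 from each of 4 groups of littermates from matings of N40K-Tg +/- with FAD +/- mice. Wild-type (WT) mice carried neither transgene set. N40K mice carried the N40K transgene, named after a truncated N-terminal form of the U1 snRNP subunit U1-70K. The 5xFAD mice carried the transgenes that give rise to amyloid deposits, and dTg mice carried both. At 12 months there were 4 WT libraries and 6 Tau P301S libraries, the latter from mice with a mutant tau transgene, all littermates of matings of Tau P301S +/- with WT mice. The sources used here do not give the promoters of the transgenes, the sex of the animals or whether each library stands for 1 animal. The p-values therefore measure the spread between these libraries, except for genes whose rounded scores had none within groups, such as Ddx6, described below. The tables hold no expression level, so the tissue could not be checked against marker genes, and transcript abundance is not known from a score. In bulk cortex the score averages over all cell types, so a shift in cell makeup and a shift within cells cannot be told apart.

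TDP-43, the product of Tardbp, is a nuclear protein that binds UG-rich RNA, represses the splicing of unwanted exons and limits its own level through the processing of its own transcript. In most patients with amyotrophic lateral sclerosis it leaves the nucleus and forms cytoplasmic inclusions in motor neurons. Matrin 3, the product of Matr3, is an RNA- and DNA-binding protein of the nuclear matrix that also regulates splicing. EWSR1 and TAF15 are relatives of one protein family, with a disordered N-terminal domain, that couple transcription to RNA processing. TIA1 binds U-rich sequences behind 5′ splice sites and helps to recruit the U1 snRNP there, and in stressed cells it is a core protein of stress granules. All of these proteins carry low-complexity or disordered regions that can condense.

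In the annotation used here (GENCODE M21, matched by Ensembl identifier), the summed intronic length was 6842 bases in Tardbp (ENSMUSG00000041459), 13437 in Tia1 (ENSMUSG00000071337), 21540 in Matr3 (ENSMUSG00000037236), 23671 in Ewsr1 (ENSMUSG00000009079) and 30739 in Taf15 (ENSMUSG00000020680). The median over the 14914 matched genes of the 6-month table was 20686.5 bases. Transcripts annotated as retaining an intron numbered 14 of 28 in Tia1, 5 of 18 in Matr3, 1 of 30 in Tardbp and 1 of 5 in Taf15, and Ewsr1 had 0 of 13. Of all matched genes, 54.4% had at least 1 such transcript. Tardbp had 10 transcripts annotated for nonsense-mediated decay, a pathway that removes aberrant transcripts, Tia1 had 4 and Matr3 had 1. The score is a value per gene, so it does not show which intron carried the signal. Gene positions are not printed, because this annotation is on another build than the scores (mm9).

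The scores were deposited with 3 decimals, and this step of 0.001 is coarse for Tardbp and Matr3. It amounted to 30% of the mean WT score of Tardbp and 27.3% of that of Matr3 at 6 months, against 5.17% for Ewsr1, 4.29% for Taf15 and 1.65% for Tia1. On the log2 scale used for testing, log2 of the score plus 0.002, 1 step from the WT mean was 0.25 for Tardbp and 0.23 for Matr3. Whether the score is normalised for length was not given, so the levels of different genes are not ranked against each other. The read depth behind the scores is unknown.

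The scores of each of the 5 genes at 6 months were close together, and the groups differed by steps rather than by multiples. Tardbp had 0.004, 0.003 and 0.003 in the WT libraries (mean 0.00333 ± 0.000577, SD, n = 3) and 0.004, 0.003 and 0.004 in 5xFAD mice (0.00367 ± 0.000577, n = 3). It had 0.005, 0.004 and 0.004 in N40K mice (0.00433 ± 0.000577, n = 3) and 0.004, 0.006 and 0.005 in dTg mice (0.005 ± 0.001, n = 3). The order of the means was thus WT, 5xFAD, N40K and dTg, and the ranges of neighbouring groups overlapped or met. The 6 libraries without the N40K transgene lay at 0.003 or 0.004, and the 6 with it lay at 0.004 to 0.006, so they shared the value 0.004.

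Matr3 had 0.004, 0.003 and 0.004 in WT mice (0.00367 ± 0.000577, SD, n = 3) and 0.003, 0.004 and 0.003 in 5xFAD mice (0.00333 ± 0.000577, n = 3). It had 0.005, 0.004 and 0.004 in N40K mice and 0.004, 0.005 and 0.004 in dTg mice, with the same mean and SD in both (0.00433 ± 0.000577, n = 3 each). As for Tardbp, the carriers of N40K lay at 0.004 or above and the other libraries at 0.003 or 0.004. The highest Matr3 scores, of 0.005, were in N40K replicate 1 and dTg replicate 2, which were also the libraries with the highest Tardbp score of their groups. These were the libraries with the highest median score over all genes (0.036 and 0.035, against 0.029 to 0.033 in the other 10), and the changes of both genes are given with and without them.

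Ewsr1 stood lowest in N40K mice. Its scores were 0.019, 0.019 and 0.020 in WT libraries (0.0193 ± 0.000577, SD, n = 3), 0.018, 0.017 and 0.016 in N40K (0.017 ± 0.001), 0.019, 0.020 and 0.018 in 5xFAD (0.019 ± 0.001) and 0.017, 0.018 and 0.021 in dTg (0.0187 ± 0.00208). The N40K and WT libraries did not overlap, while dTg and 5xFAD libraries did, with the highest score of all in dTg replicate 3. The share of all genes whose libraries separate in this way was not counted, so the separation is not read as particular to Ewsr1. Taf15, its relative, had 0.023, 0.022 and 0.025 in WT, 0.024, 0.022 and 0.022 in N40K, 0.024 in all 5xFAD libraries and 0.024, 0.024 and 0.026 in dTg mice. Its group means ran from 0.0227 ± 0.00115 in N40K to 0.0247 ± 0.00115 in dTg mice (SD, n = 3 each), with overlapping ranges.

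Tia1 had 0.059, 0.058 and 0.065 in WT mice (0.0607 ± 0.00379, SD, n = 3), 0.062, 0.061 and 0.057 in N40K (0.06 ± 0.00265), 0.055, 0.064 and 0.054 in 5xFAD (0.0577 ± 0.00551) and 0.057, 0.066 and 0.064 in dTg mice (0.0623 ± 0.00473). All 4 groups overlapped, and the spread within the 5xFAD group was wider than the differences between the group means.

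**Figure D1:**
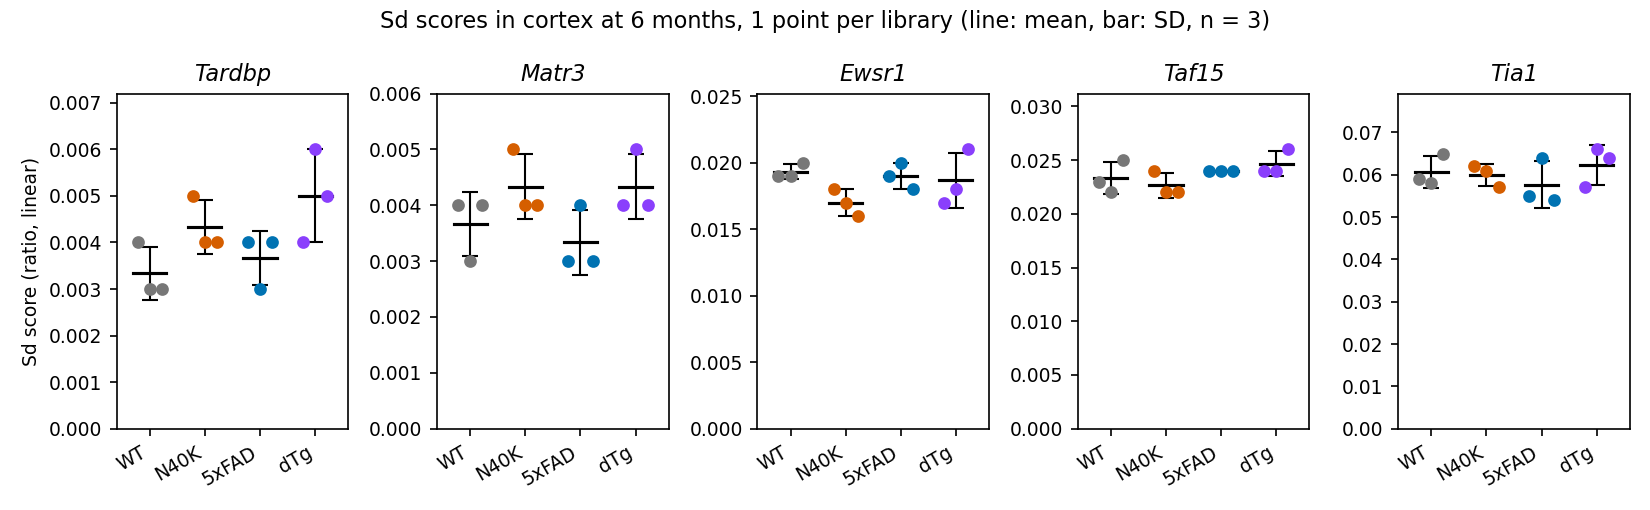
Sd score (linear ratio, y axis from 0, a separate scale per gene) of Tardbp, Matr3, Ewsr1, Taf15 and Tia1 in the 12 libraries at 6 months by group, with the group mean and SD (n = 3). Tardbp and Matr3 take only values from 0.003 to 0.006, 1 step of 0.001 apart, and the Ewsr1 scores of N40K mice (0.016 to 0.018) lie under those of WT mice (0.019 to 0.020).

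The N40K effect averaged over 5xFAD status, which sets the 6 carriers against the 6 other libraries, had none of the 5 genes past the threshold (limma, p-values adjusted by Benjamini and Hochberg across the whole table, threshold 0.05), where 11.7% of all genes passed. At an unadjusted p under 0.05 there were 2 of the 5, both higher, against 29.1% of all genes in either direction and 26% higher. Tardbp went from 0.0035 ± 0.000548 to 0.00467 ± 0.000816 (SD, n = 6 each), a log2 change of 0.27 ± 0.09 (SE, 1.21-fold, limma unadjusted p = 0.0132, adjusted p = 0.0787). The exact permutation test over the libraries, with 5xFAD status as a stratum (400 regroupings), gave p = 0.045 for Tardbp. After adjustment over the 40 exact tests of these genes it was 0.8. Even at the smallest p of this test, 0.005, a gene alone could not pass that adjustment, so the 0.8 is not read as evidence about Tardbp. Without dTg replicate 1, the carrier of lowest median score, Tardbp passed (log2 change 0.33, limma adjusted p = 0.0381), as did 2352 of all 15705 genes. Matr3 went from 0.0035 ± 0.000548 to 0.00433 ± 0.000516, a log2 change of 0.21 ± 0.08 (1.15-fold, limma adjusted p = 0.118, exact permutation p = 0.09). In both genes the means differed by about 1 step of the last decimal.

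Ewsr1 had the opposite sign, with 0.0192 ± 0.000753 in non-carriers and 0.0178 ± 0.00172 in carriers (SD, n = 6 each), a log2 change of −0.10 ± 0.05 (SE, 0.935-fold, limma adjusted p = 0.25, exact permutation p = 0.085). Taf15 had the same mean of 0.0237 on both sides, and its 95% interval ran from 0.94-fold to 1.06-fold. Tia1 had 0.0592 ± 0.00454 in non-carriers and 0.0612 ± 0.00366 in carriers (1.03-fold, 95% interval 0.945-fold to 1.13-fold, limma adjusted p = 0.629). The median log2 change over the 5 genes was 0.05, and over all genes of the table it was 0.09.

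The N40K libraries as a whole stood higher, so the comparison was repeated on log2 scores from which the median of the library had been subtracted. This centring moved the median change over all genes from 0.09 to −0.04. On this relative scale Ewsr1 fell (log2 change −0.23 ± 0.06, SE, limma adjusted p = 0.0351) and was the only one of the 5 to pass. In the same fit 1241 of all 15705 genes passed, 713 of them higher. Among all genes, 92.0% of those that passed were higher without centring and 57.5% with it. The score of Ewsr1 divided by the median score of its library was 0.655, 0.655 and 0.667 in WT and 0.613, 0.667 and 0.621 in 5xFAD mice, against 0.5, 0.548 and 0.5 in N40K and 0.567, 0.514 and 0.636 in dTg mice. By this measure all N40K libraries lay under the non-carriers, as did dTg replicates 1 and 2, while dTg replicate 3 lay inside their range. The share of all genes that lie so by this measure was not counted, so this is not read as particular to Ewsr1.

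This relative fall of Ewsr1 was close to the threshold. With 1 library left out in turn, its centred log2 change stayed between −0.27 and −0.20, but it passed in only 2 of 12 cases, without N40K replicate 2 and without dTg replicate 3 (limma adjusted p from 0.0204 to 0.0758 over the 12). Of all 15705 genes, 1025 and 1225 passed in these 2 cases and 543 to 1150 in the other cases, against 1241 with all libraries. The loss of the call is therefore not read as particular to Ewsr1. Without both libraries of highest median the centred change of Ewsr1 was −0.19 (limma adjusted p = 0.118), and 392 of all genes passed. After centring, Taf15 had a log2 change of −0.14 ± 0.05 (SE, limma unadjusted p = 0.0252, adjusted p = 0.123) and Tia1 one of −0.09 ± 0.06, which turned its sign, while Tardbp had 0.14 ± 0.07 and Matr3 0.07 ± 0.07 (adjusted p = 0.232 and 0.517). Without both libraries of highest median and without centring, Tardbp had a log2 change of 0.19 and Matr3 one of 0.13.

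**Figure D2:**
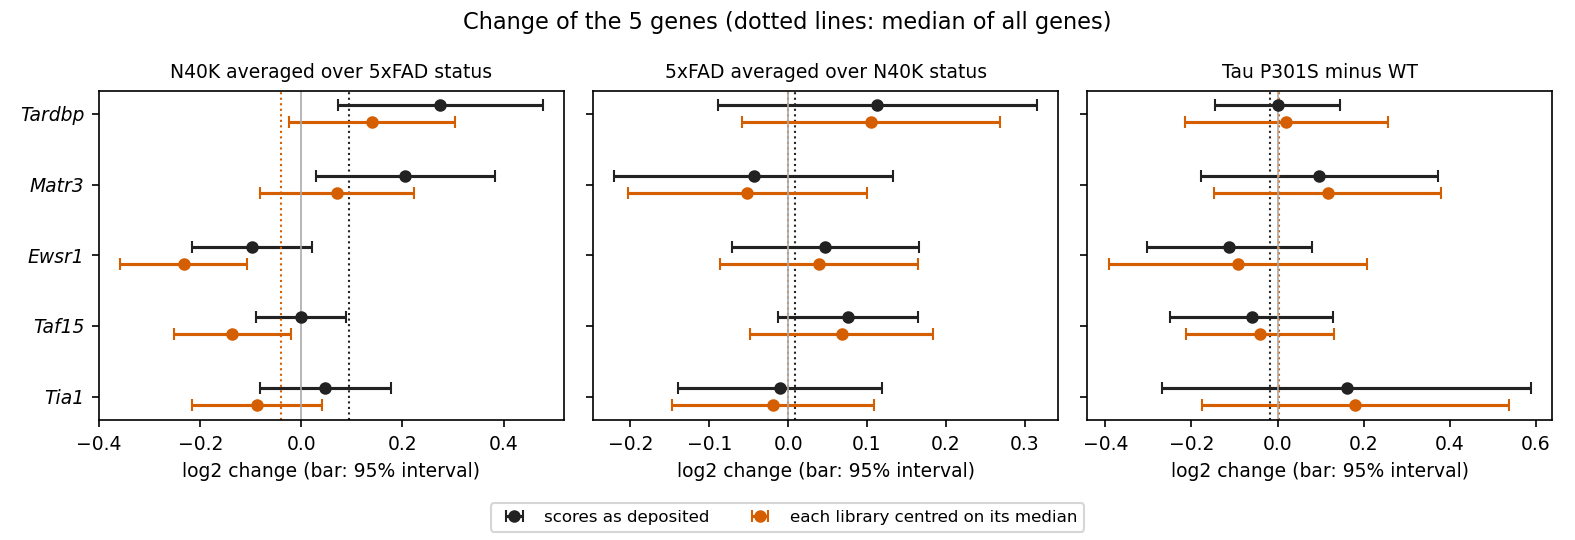
Log2 change of the 5 genes with its 95% interval (x axis) in the averaged N40K, averaged 5xFAD and Tau P301S comparisons, as deposited (black) and with each library centred on its median (orange), and the median change of all genes as dotted lines. In the N40K panel centring shifts every gene to the left by the same amount, so that the intervals of Ewsr1 and Taf15 leave 0 and those of Tardbp and Matr3 come to span it.

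In the single groups of 3, N40K minus WT gives the N40K effect in mice without amyloid transgenes. Here the log2 change was 0.25 ± 0.13 in Tardbp, 0.16 ± 0.11 in Matr3, −0.17 ± 0.07 in Ewsr1, −0.04 ± 0.06 in Taf15 and −0.01 ± 0.08 in Tia1 (SE). None passed (limma, 0.178% of all genes passed), and Ewsr1 alone had an unadjusted p under 0.05 (0.0489, adjusted p = 0.262, against 18.9% of all genes). Its N40K and WT libraries did not overlap (0.89-fold), for which the exact permutation test gave p = 0.1, the smallest that 3 against 3 allows. How many of all genes separate in the same way was not counted. For dTg minus 5xFAD, the N40K effect in mice with amyloid transgenes, the log2 change was 0.30 ± 0.13 in Tardbp (limma adjusted p = 0.256), 0.25 ± 0.11 in Matr3 (0.277), −0.03 ± 0.07 in Ewsr1, 0.04 ± 0.06 in Taf15 and 0.11 ± 0.08 in Tia1. None passed (0.312% of all genes passed), and Tardbp alone had an unadjusted p under 0.05 (against 18% of all genes).

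For dTg minus WT, both sets of transgenes together, Tardbp had the largest difference seen among the 5 genes, from 0.00333 to 0.005, a log2 change of 0.39 ± 0.13 (SE, 1.31-fold, 95% interval 1.07-fold to 1.6-fold, limma adjusted p = 0.121). The libraries of both groups shared the value 0.004. Matr3 had 0.16 ± 0.11, Taf15 0.07 ± 0.06, Tia1 0.04 ± 0.08 and Ewsr1 −0.05 ± 0.07. None of the 5 passed (limma, 1 at an unadjusted p under 0.05), where 1.57% of all genes passed and 22.5% had an unadjusted p under 0.05. This comparison shares its WT libraries with N40K minus WT and its dTg libraries with dTg minus 5xFAD.

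For the 5xFAD effect averaged over N40K status none of the 5 genes passed. The largest log2 change was that of Tardbp, 0.11 ± 0.09 (SE, limma adjusted p = 0.969), and the smallest p was that of Taf15, with 0.023 ± 0.00126 in the 6 non-carriers and 0.0243 ± 0.000816 in the 6 carriers (log2 change 0.08 ± 0.04, adjusted p = 0.848, exact permutation p = 0.06). Ewsr1 had 0.05 ± 0.05, Tia1 −0.01 ± 0.06 and Matr3 −0.04 ± 0.08. By limma none of the 5 passed and none had an unadjusted p under 0.05, against 0.0446% and 6.17% of all genes. The 95% intervals were from 0.94-fold to 1.24-fold in Tardbp and from 0.991-fold to 1.12-fold in Taf15. Between single groups none passed either in 5xFAD minus WT or in dTg minus N40K (limma, none at an unadjusted p under 0.05 in either). Of all genes 0.0191% passed in each, and 4.39% and 5.14% had an unadjusted p under 0.05.

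Whether the N40K effect differed with the amyloid transgenes was tested by the interaction term. All 5 interaction terms were above 0, from 0.05 in Tardbp to 0.14 in Ewsr1 on the log2 scale, as were 47.7% of those of all genes. None passed (limma adjusted p = 1 for each of the 5, none at an unadjusted p under 0.05), against 0.0191% and 2.87% of all genes. For Ewsr1, the gap between its N40K effect without amyloid transgenes (−0.17) and with them (−0.03) was 0.14 ± 0.10 (SE, unadjusted p = 0.21), with a 95% interval from −0.09 to 0.38.

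At 12 months none of the 5 genes passed between Tau P301S and WT mice (limma, none at an unadjusted p under 0.05), where 0.00658% of all genes passed and 8.28% had an unadjusted p under 0.05. Tardbp had 0.006, 0.007, 0.007 and 0.006 in the 4 WT libraries, and the 6 Tau P301S libraries had 0.006 or 0.007, with 3 at each. Its mean was 0.0065 in both groups (SD 0.000577 and 0.000548), so the log2 change was 0, with a 95% interval from 0.904-fold to 1.11-fold. The libraries of both groups thus shared the same pair of values.

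Ewsr1 had 0.008, 0.007, 0.006 and 0.007 in WT mice (0.007 ± 0.000816, SD, n = 4), and in Tau P301S mice it had 0.006 in 5 libraries and 0.008 in replicate 4 (0.00633 ± 0.000816, n = 6, 0.925-fold, limma adjusted p = 0.79). Taf15 ranged from 0.020 to 0.027 in WT (0.024 ± 0.00316) and from 0.021 to 0.024 in Tau P301S mice (median 0.0235, 0.959-fold, adjusted p = 0.891). Both of these related genes overlapped between the groups.

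Matr3 had 0.007, 0.006, 0.008 and 0.009 in WT libraries (0.0075 ± 0.00129, SD, n = 4) and a lowest, median and highest score of 0.007, 0.008 and 0.011 in Tau P301S libraries (0.00817 ± 0.00147, n = 6, 1.07-fold, limma adjusted p = 0.883). Tia1 had 0.039, 0.041, 0.054 and 0.059 in WT (0.0483 ± 0.00978) and a lowest, median and highest score of 0.047, 0.047 and 0.084 in Tau P301S mice (0.0547 ± 0.0148, 1.12-fold, adjusted p = 0.879). In both genes the highest of the 10 libraries was Tau P301S replicate 2. Without it the log2 change went from 0.10 to 0.02 in Matr3 and from 0.16 to 0.03 in Tia1, and the Tia1 scores of the 5 other Tau P301S libraries (0.047 to 0.056) lay inside the WT range. Replicate 2 was the highest of the 10 libraries in 10.6% of all genes and had a median score of 0.015, within the range of the others (0.013 to 0.017). The WT libraries themselves were spread, since replicates 3 and 4 had both the higher Tia1 scores and the higher medians (0.017, against 0.013 in replicates 1 and 2).

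**Figure D3:**
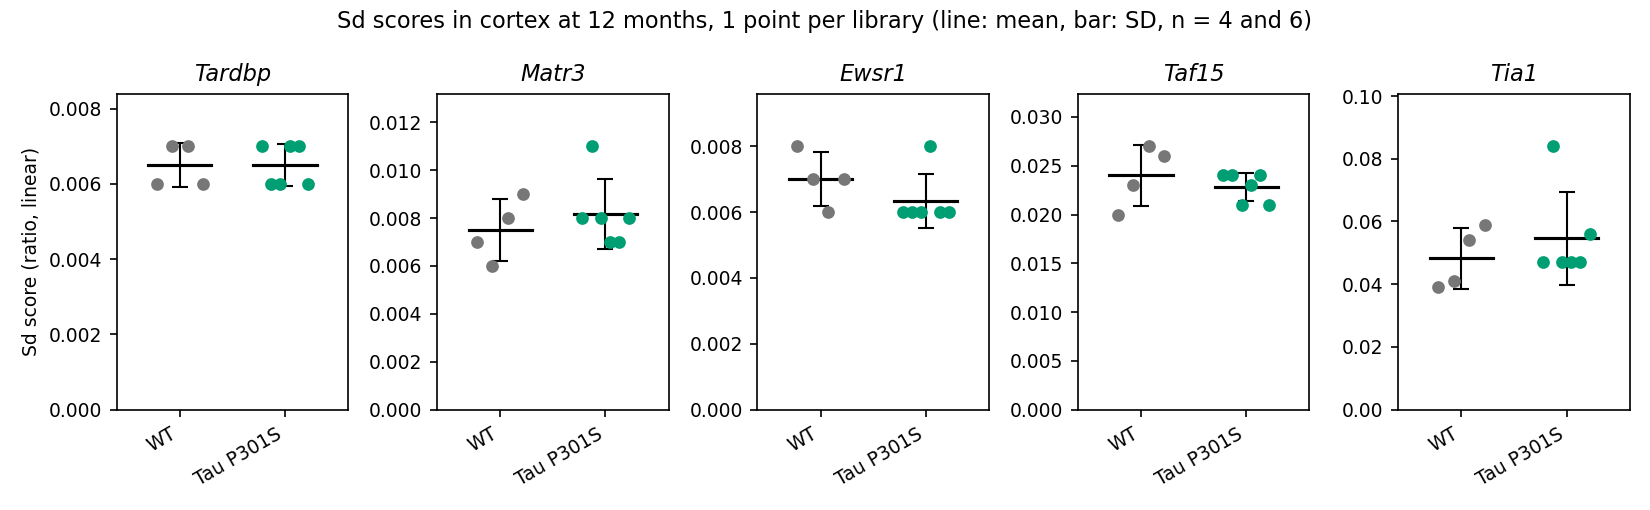
Sd score (linear ratio, y axis from 0, a separate scale per gene) of the 5 genes in the 4 WT and 6 Tau P301S libraries at 12 months, with the group mean and SD. The groups overlap in each gene, and 1 Tau P301S library, replicate 2, stands above the rest in Matr3 (0.011) and Tia1 (0.084).

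WT scores of the 2 ages are set side by side without a test, because the tables were made separately and differ in level, with a median ratio of 0.632 (12 over 6 months) over the 12821 genes that both list above 0 under a unique symbol. Against this, Ewsr1 went from 0.0193 to 0.007 (ratio 0.362, with 20.2% of genes lower), and Tia1 from 0.0607 to 0.0483 (0.795). Taf15 was nearly level at 0.0233 and 0.024 (1.03). Tardbp went from 0.00333 to 0.0065 (1.95) and Matr3 from 0.00367 to 0.0075 (2.05), with ratios above those of 90.0% and 90.8% of the genes. As 1 rounding step was 30% and 27.3% of their 6-month means, these ratios and ranks are coarse. The ratios of the related genes Ewsr1 and Taf15 thus lay on opposite sides of the median ratio. Age, the matings and the making of the tables cannot be told apart in these ratios.

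**Figure D4:**
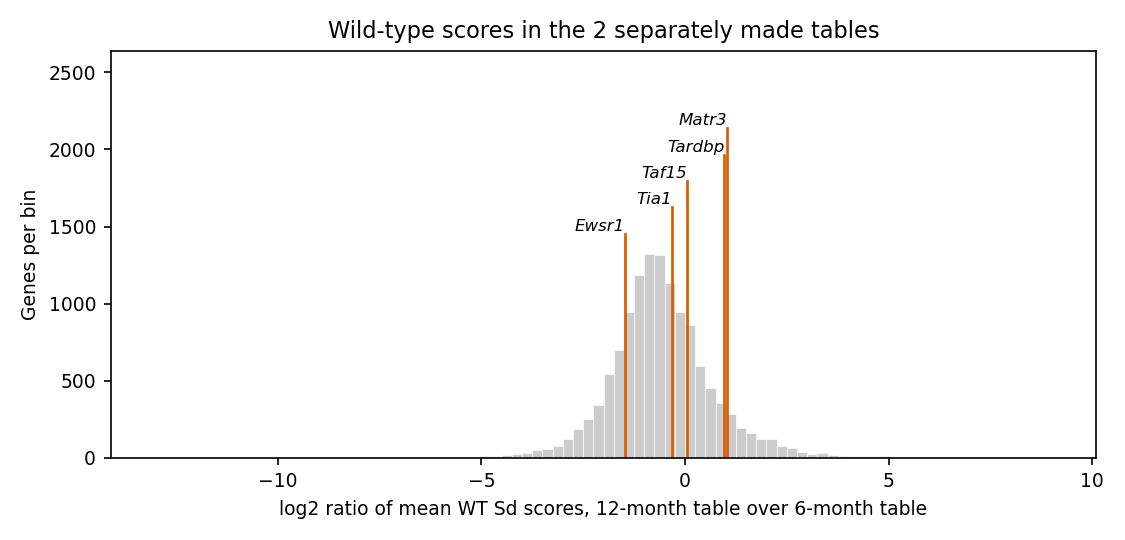
Histogram of the log2 ratio of mean WT Sd scores, 12-month table over 6-month table (x axis), for 12821 genes (y axis, genes per bin), with the 5 genes as orange lines. Ewsr1 (ratio 0.362) lies to the left of the median (0.632), and Tardbp (1.95) and Matr3 (2.05) lie to the right.

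Related genes were taken from 5 lists, chosen with earlier results of these data known. Where carriers and non-carriers of a gene are said not to overlap, the share of all genes that separate so was not counted. Of 13 measured genes for other disease-linked RNA-binding and RNA-processing proteins, 1 rose with N40K and none fell, where 10.8% of all genes rose. It was Rbm45 (ENSMUSG00000042369), an RNA-binding protein found in inclusions, from 0.0897 ± 0.00339 to 0.102 ± 0.00573 (SD, n = 6 each, 1.13-fold, limma adjusted p = 0.0327). Its carriers and non-carriers did not overlap, but when single libraries were dropped it no longer passed in 8 of 12 cases (highest p 0.0753, without WT replicate 2). It also did not pass without both libraries of highest median (0.0819) or after centring (0.529). Of all genes, 1838 passed with all libraries, 813 to 2352 with 1 left out, 749 without both libraries of highest median and 1241 after centring. The lost calls of Rbm45 and of the list genes below are therefore not read as particular to them. The median log2 change of this list was 0.08, against 0.09 over all genes.

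Of 23 stress granule and messenger ribonucleoprotein genes, among which TIA1 acts, 4 rose with N40K and none fell (17.4%, against 10.8% of all genes that rose), with a list median of 0.14. Ybx1, a cold-shock-domain protein that packages mRNA, went from 0.0212 ± 0.00147 to 0.032 ± 0.00498 (SD, n = 6 each, 1.46-fold, limma adjusted p = 0.0135). Its lowest carrier, 0.027, lay above its highest non-carrier, 0.023, and it passed without each single library, without both libraries of highest median and after centring. Ddx6, an RNA helicase of P-bodies, stood at 0.002 in all 6 non-carriers and at 0.003 in all 6 carriers, a difference of 1 step. Its rounded scores did not vary within either side (SD 0), so its SE of 0.0201 came only from the variance pooled over all genes. The limma adjusted p of 6.96e-05 therefore measures no spread between libraries, and after centring the adjusted p was 0.0613. G3bp1, which nucleates stress granules, went from 0.015 ± 0.0021 to 0.0202 ± 0.00223 (1.31-fold, adjusted p = 0.0375) and its partner Caprin1 from 0.0162 ± 0.000753 to 0.0187 ± 0.00121 (1.14-fold, adjusted p = 0.0396). Both overlapped between carriers and non-carriers. When single libraries were dropped, G3bp1 no longer passed in 7 and Caprin1 in 10 of 12 cases (highest p 0.0858 and 0.0861, both without dTg replicate 2). Neither passed without both libraries of highest median (0.135 each) or after centring (0.0868 and 0.487). Tia1 itself, at 1.03-fold, was not among the genes that passed.

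Of 15 paraspeckle and nuclear matrix genes, the compartment of Matrin 3, 1 rose and none fell (6.67%, against 10.8% of all genes that rose). This was Hnrnpu, another protein of the nuclear matrix, at 1.25-fold (limma adjusted p = 0.002, and 0.0402 after centring), with no overlap between carriers (0.134 to 0.145) and non-carriers (0.108 to 0.116). The list median was 0.10. Of 8 genes listed here as long-intron targets of TDP-43 none passed (limma, none at an unadjusted p under 0.05), against 11.7% and 29.1% of all genes. The smallest p was shared by Efna5, an ephrin ligand, and Nrxn3, a presynaptic adhesion protein, both at 0.001 in all non-carriers and at 0.001 or 0.002 in carriers (limma adjusted p = 0.176). Scores this near the rounding step of 0.001 can hardly show a change, so the count of none does not show that these targets were spared.

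Of 19 measured motor neuron disease genes outside RNA binding, 1 rose and none fell (5.26%, against 10.8% of all genes that rose). Vapb, a membrane protein of the endoplasmic reticulum, went from 0.0227 ± 0.00197 to 0.0308 ± 0.00527 (SD, n = 6 each, 1.32-fold, limma adjusted p = 0.034), with both sides sharing the value 0.025. It no longer passed in 8 of 12 cases of a dropped library (highest p 0.0802, without WT replicate 2), without both libraries of highest median (0.102) or after centring (0.0569). The list median was 0.07. In the tau mice no gene of the 5 lists passed (limma, 2 at an unadjusted p under 0.05, both among the disease-linked RNA-binding and RNA-processing genes), against 0.00658% and 8.28% of all genes. The smallest p was that of Ang, which encodes a secreted ribonuclease, with a lowest, median and highest score of 0.181, 0.328 and 0.762 in Tau P301S libraries (adjusted p = 0.574). In WT libraries it was spread from 0.054 to 0.369 and overlapped with them. The genes of smallest p in the other lists were Stau1 (1.14-fold, adjusted p = 0.614), Hnrnpl (0.897-fold, 0.674), Sort1 (1.1-fold, 0.809) and Sod1 (0.905-fold, 0.613).

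**Figure D5:**
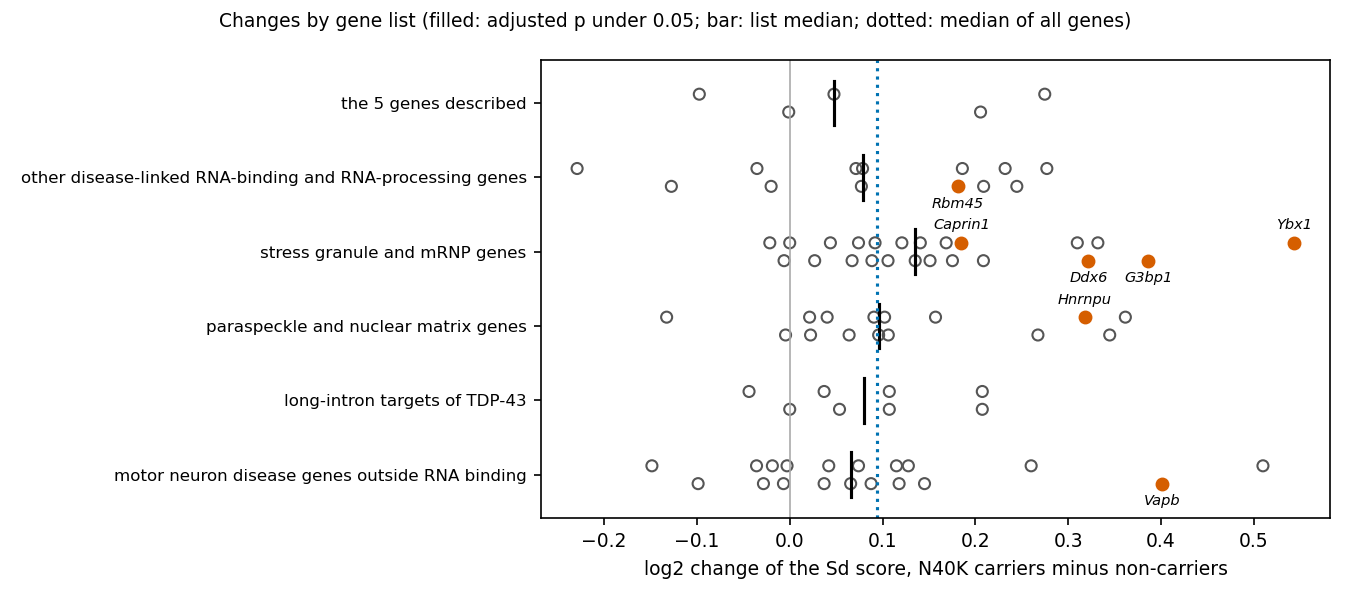
Log2 change of the Sd score between N40K carriers and non-carriers (x axis) for the genes of each list (y axis), with genes past the threshold filled and named, the list median as a bar and the median of all genes as a dotted line. None of the 5 genes described is filled, and the 7 that are lie between 0.18 (Rbm45 and Caprin1) and 0.54 (Ybx1).

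Genes whose centred log2 scores followed those of the 5 most closely were sought over the 12 libraries at 6 months, among 9634 genes of mean score at least 0.02, of which predicted genes are not named. Pearson's r is a description of these libraries, which belong to the same 4 groups. Each value is the highest of many candidates, and subtracting the library median puts a shared component into all genes. A high r is therefore not read as a link between genes. Gins4 (r = 0.86), Zfp846 (0.82) and Zcchc2 (0.82) were nearest to Tardbp, and Pank2 (0.89), Prss23 (0.88) and Haus8 (0.88) to Matr3. Mrps18a (0.96), Grin1 (0.95) and Tmem150b (0.95) were nearest to Ewsr1, Pspn (0.95), Ndufb10 (0.95) and Rassf8 (0.94) to Taf15, and Ahsa1 (0.93), Dnm2 (0.90) and Plk4 (0.89) to Tia1. Over the 10 libraries at 12 months most of these likenesses were not seen. Grin1 and Tmem150b had 0.67 and 0.65 with Ewsr1 and Gins4 had 0.56 with Tardbp, while the other 12 had values between −0.70 and 0.33.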

How the data were processed

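Per the submitters' processing notes, reads were handled with CASAVA, STAR, BWA and bedtools 2.16.1 on the mm9 build. The authors deposited 1 Sd score per gene and library, a linear ratio rounded to 3 decimals. The sources used here do not give its formula, counter, annotation or read depth. A total of 12 and 10 libraries were analysed. Tests used log2 of the score plus a pseudocount of 0.002, set at percentile 5 of the nonzero scores of either table, which draws folds of low scores towards 1. Libraries were not centred in the main analysis. A model of group means was fitted (limma 3.58.1, R 4.3.3, default eBayes, two-sided) over all genes and libraries of a table, with 8 residual degrees of freedom each, and the code was tested on simulated data. Exact permutation tests were two-sided. The 5 genes and the lists were chosen with earlier results of these data known. Named list genes were up to 4 past the threshold per list in the averaged N40K and in the tau comparison, or else the gene of smallest p (Nrxn3 was added because it tied), and the 3 genes of highest r per described gene. Libraries of a table had equal scores in 8.12% to 24.7% of genes, so none was a copy of another. Alternatives covered the pseudocount, centring, low scores, the variance model, the groups fitted, the replicate block and leaving out libraries.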

Additional observations from a re-analysis of the deposited data

Results flagged for a closer look

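Within the groups of 4 and 6 libraries at 12 months, 3 scores lay further from the next library than is usual for their group, by Dixon's test of the gap over the range. For unrounded scores chance flags about 1 in 20 groups, and 10 were looked at. These scores are rounded and often tied, so that rate need not hold here. Ewsr1 had 0.008 in Tau P301S replicate 4, against 0.006 in the 5 others, a gap of 2 steps of the last decimal. Matr3 had 0.011 and Tia1 had 0.084 in Tau P301S replicate 2, against highest scores of 0.008 and 0.056 in the other Tau P301S libraries.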

How the results depend on the processing

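None of the 5 genes passed as deposited in any comparison. Over all alternatives 838 changes of these genes were recomputed. Of these, 794 kept their sign and side of the threshold, 40 turned sign and 4 passed. Some alternatives altered only the test and left the estimate as it was, so they could not turn a sign. Among them were the 40 exact tests, the variance model and the replicate block in the averaged N40K comparison. The exact tests of 3 against 3 had a smallest p of 0.1, so none of them could pass. The other exact tests could pass after adjustment only if several of them had a very small p together. The 794 thus overstate how stable the signs and the sides of the threshold were, and the share that could turn or pass was not counted. The 4 that passed were all in the averaged N40K comparison, with 1 gene of 5 passing each time. Ewsr1 passed after centring (adjusted p = 0.0351) and after centring without N40K replicate 2 or dTg replicate 3, alternatives added after the data had been examined. Tardbp passed without dTg replicate 1, so that with 1 library left out between 0 and 1 genes passed. A minimum mean score of 0.02 left Tardbp, Matr3 and Ewsr1 with no value. Over all genes this comparison called 1838, against 1241 after centring, 832 above that minimum, 796 untransformed, 749 without both libraries of highest median and 813 (without WT replicate 2) to 2352 (without dTg replicate 1) with 1 library left out. The cause was not tested.

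Signs turned as follows, on the log2 scale. Centring gave Taf15 −0.0777 in dTg minus 5xFAD and −0.0686 in dTg minus WT. It gave Tia1 −0.0876 in the averaged N40K comparison, −0.00343 in dTg minus 5xFAD and −0.107 in dTg minus WT. Centred and with 1 library left out, Tia1 in the averaged N40K comparison had −0.114, −0.0503 and −0.0981 without 5xFAD replicates 1, 2 and 3, −0.0689, −0.114 and −0.0797 without those of N40K, −0.0931, −0.099 and −0.0707 without those of WT and −0.0853, −0.0841 and −0.0934 without those of dTg. Centred and without both libraries of highest median it had −0.0654, and its uncentred change in dTg minus WT without both was −0.00439. With 1 library left out, Ewsr1 ran from −0.0576 to 0.0112 in 5xFAD minus WT, from −0.106 to 0.0315 in dTg minus 5xFAD and from −0.13 to 0.00806 in dTg minus WT. Taf15 ran from −0.0203 to 0.0223 in the averaged N40K comparison and from −0.0763 to 0.00905 in N40K minus WT. Tia1 ran from −0.0481 to 0.0198 in the averaged 5xFAD comparison, from −0.0451 to 0.0345 in N40K minus WT and from −0.00439 to 0.098 in dTg minus WT. The Tardbp interaction ran from −0.0506 to 0.157.

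The replicate numbers did not pair the libraries. Same-numbered libraries of different groups deviated from their group means with r from −0.2 to 0.071 over 18 pairs at 6 months and from −0.265 to 0.191 over 4 pairs at 12 months, and 0 of 12 and 1 of 10 libraries had their highest r with their own number. With the replicate block 0 of the 5 genes passed in each comparison, and the averaged N40K comparison called 889 of all genes. Of the list genes, Rbm45 (adjusted p = 0.0791), G3bp1 (0.0565), Caprin1 (0.0882) and Vapb (0.0789) did not pass with the block. The rounding step limits low scores: it was 30% and 27.3% of the WT mean of Tardbp and Matr3 at 6 months, and 15.4%, 14.3% and 13.3% of that of Tardbp, Ewsr1 and Matr3 at 12 months. The read depth is unknown.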
